A study of Mus musculus with 4 samples.

Results

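Exonic peaks of H3K4me3 away from gene starts were the regions described here: peaks of the list called as replicated over both pools of heart tissue that lay more than 1000 bp from every annotated transcript start of any gene type and overlapped an annotated exon by at least 1 bp. There were 1011 of them among 24996 peaks, or 4.04% of the list (95% interval 3.80 to 4.30%, exact Clopper-Pearson, as for all intervals of shares below; these cover counting error only). They covered 729 kb, 2.38% of all bases under peaks. The other peaks fell within 1000 bp of a start (17622), in introns (3624) or between genes (2739). The rule used position alone, but a wide peak meets an exon more easily than a narrow one and exons differ from introns in base composition, so width and composition are not independent of it. The study profiled hearts of adult female B6CASTF1/J mice, a first-generation cross between C57BL/6J and CAST/EiJ, at 2 months of age, with chromatin immunoprecipitation sequencing. There were 2 pools, named G and H, each made of 2 heart biosamples and sequenced as 2 technical replicates with fragments of 200 to 600 bp. No treatment and no other genotype was included. The labels number pool G as biological replicate 1 and pool H as biological replicate 2. The pools also share 1 donor record, so whether they came from separate animals is not settled.

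Trimethylation of lysine 4 on histone H3 is laid down mainly around transcription starts, by complexes of the SET1 and MLL families. Several subunits of these complexes bind unmethylated CpG dinucleotides, and CpG islands, the stretches of DNA that keep many CpGs, carry the mark widely. Alternative starts within genes, broad start domains that reach into gene bodies and islands inside exons are the known settings in which exons carry it. Heart tissue mixes cardiomyocytes, the contractile cells, with endothelial cells, fibroblasts and the mural cells of vessel walls.

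The signal of a peak is the value deposited by the authors and was read as a fold enrichment over a control. Classes of peaks were compared only within a list. Values of both pools are set side by side for single peaks, but pool G's medians were higher in every location, starts included, so no difference between pools is read from them. Beside the replicated list, each pool had a list of its own, and a further list pooled both. As a check of the tissue, 32 of 33 annotated genes of a list for the contractile apparatus had a peak within 1000 bp of a start. It was 13828 of 21728 protein-coding genes, 12 of 18 neuronal, 4 of 18 immune and 3 of 9 erythroid genes. Lists not particular to heart were also almost fully marked, with 18 of 18 housekeeping, 19 of 19 circadian and 45 of 46 chromatin genes. The share of the contractile list alone thus does not single out heart. No read depth was used here, since the peak lists do not hold it.

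The exonic peaks ranged from CpG-dense coding sequence to sequence with hardly a CpG, and 6 windows of 200 bases around peak summits show that range. They are mm10 plus-strand sequence, 5′ to 3′, in lower case with each CpG in capitals. Clec11a (chr7:44304662-44304861, fold enrichment 20.0), which encodes a secreted growth factor of bone marrow and bone, had 21 CpGs in an all-coding window of its last exon. Synpo2l (chr14:20661263-20661462, 14.4), which encodes a protein of the cardiac Z-disc, also had 21 CpGs, in the coding part of its last exon. Tal1 (chr4:115063166-115063365, 6.72), a transcription factor of blood and endothelial development, had 27. Rims1 (chr1:22533498-22533697, 2.64), a scaffold protein of synaptic active zones, had 26 CpGs although its peak was weak and was absent from both pools' own lists. Lrp1b (chr2:41471010-41471209, 2.79), a lipoprotein receptor, had 2 CpGs. Tnnc1 (chr14:31209480-31209679, 5.92), the calcium sensor of the thin filament, had 0, with its summit in the intron beside the exon.
Clec11a: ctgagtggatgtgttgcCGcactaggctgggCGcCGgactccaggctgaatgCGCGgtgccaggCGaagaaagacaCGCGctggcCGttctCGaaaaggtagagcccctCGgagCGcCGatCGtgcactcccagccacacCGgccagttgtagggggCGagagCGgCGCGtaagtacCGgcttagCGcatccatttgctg
Synpo2l: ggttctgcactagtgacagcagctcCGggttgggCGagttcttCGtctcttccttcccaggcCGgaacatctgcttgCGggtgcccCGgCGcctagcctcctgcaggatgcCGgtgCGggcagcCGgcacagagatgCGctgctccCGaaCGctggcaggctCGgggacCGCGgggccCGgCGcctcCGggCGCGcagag
Tal1: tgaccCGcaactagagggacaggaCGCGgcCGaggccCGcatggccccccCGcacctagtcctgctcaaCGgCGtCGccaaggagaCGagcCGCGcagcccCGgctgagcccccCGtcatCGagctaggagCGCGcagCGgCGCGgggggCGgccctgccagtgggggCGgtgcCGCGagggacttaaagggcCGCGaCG
Rims1: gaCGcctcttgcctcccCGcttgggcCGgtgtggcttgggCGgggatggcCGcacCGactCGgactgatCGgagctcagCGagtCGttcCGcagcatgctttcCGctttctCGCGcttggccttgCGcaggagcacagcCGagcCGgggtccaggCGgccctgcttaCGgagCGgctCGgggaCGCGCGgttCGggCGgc
Lrp1b: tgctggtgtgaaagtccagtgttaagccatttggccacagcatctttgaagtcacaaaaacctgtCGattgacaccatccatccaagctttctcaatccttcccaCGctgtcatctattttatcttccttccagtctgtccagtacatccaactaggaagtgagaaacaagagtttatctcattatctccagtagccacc
Tnnc1: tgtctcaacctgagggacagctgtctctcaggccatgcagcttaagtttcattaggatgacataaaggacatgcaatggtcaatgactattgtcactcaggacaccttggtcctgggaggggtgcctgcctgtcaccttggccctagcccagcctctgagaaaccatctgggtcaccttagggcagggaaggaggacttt

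Most exonic peaks were modest. Their median fold enrichment was 3.83, with quartiles of 2.99 and 5.62 and a range of 1.72 to 22.0. Intronic peaks away from starts had a median of 3.26, intergenic peaks 4.13 and peaks at starts 12.5. The list of pool G had medians of 4.54 for exonic, 3.94 for intronic, 4.73 for intergenic and 15.02 for start peaks. For pool H they were 4.29, 3.84, 4.63 and 10.8 in the same order. The order of the 4 classes was thus equal in both pools, with exonic peaks between intronic and intergenic ones and far below start peaks. With 2 pools no test of these differences was made. Exonic peaks had a median width of 578 bp, against 446.5 bp for intronic, 507 bp for intergenic and 1349 bp for start peaks. An overlap of 1 bp favours wide peaks, while lying wholly in exons favours narrow ones. The 343 peaks that lay wholly in exons were 444 bp wide at the median, with a fold enrichment of 3.36. The 286 others that were at least 50% exonic had 642 bp and 4.61. Median width was 640 bp where 10 to 50% was exonic and 778 bp below 10%. The part of the 1 bp rule in the width was not tested. Strong peaks, of fold enrichment 10 or more, made up 6.92% of exonic peaks (70 of 1011), 1.96% of intronic and 8.91% of intergenic peaks. At the weak end, 39 exonic peaks had a q value over 0.05.

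**Figure D1:**
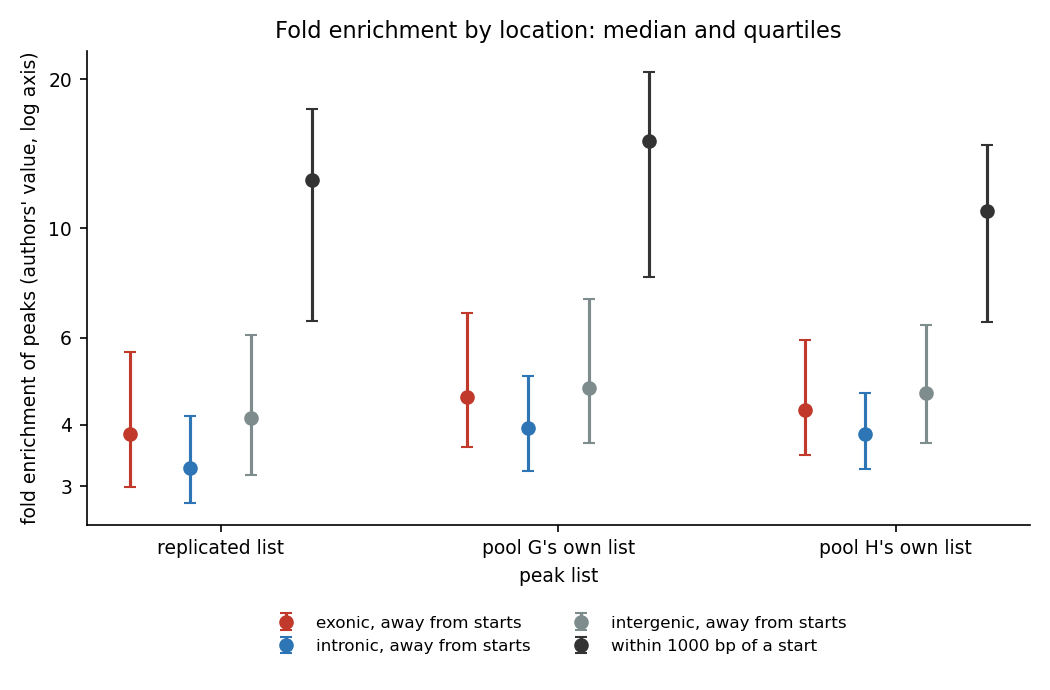
Fold enrichment of peaks (log axis) by location in the replicated list and in each pool's own list, with points at the median and bars over the quartiles. In each of the 3 lists the exonic peaks away from starts (medians 3.83, 4.54 and 4.29) lie above the intronic and below the intergenic and start peaks.

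The median distance from an exonic peak to the nearest start was 3519 bp, with quartiles of 1847.5 and 7378.5 bp. Up to 2000 bp there were 280 peaks, and beyond 10000 bp there were 186. Median fold enrichment was 3.55 in the nearest of these bins and 3.91 in the farthest. In the 200 bp just inside the limit, 64 peaks had a median fold enrichment of 3.84 and a width of 644.5 bp. In the 200 bp just outside it, 69 exonic peaks had 3.46 and 473 bp. The peaks overlapped exons by a median of 311 bp, and 67.9% of a peak's length was exonic at the median. The peak farthest from any start lay in exon 13 of Lrp1b, 317791 bp away, with a fold enrichment of 2.79 (3.01 in pool G and no peak in pool H). Rims1 followed at 100583 bp. Syne1, which encodes a giant protein linking the nucleus to the cytoskeleton, carried a peak 67360 bp from any start with a fold enrichment of 7.23 (8.43 in pool G and 5.87 in pool H). Only 25.9% of the width of the Syne1 peak was exonic, and its summit lay outside the exon. The distal peak in the last exon of Cdh20, a cadherin, lay 81616 bp away and had a fold enrichment of 3.82 (4.92 and 3.74).

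Coding sequence was the main exonic part of 485 peaks (48.0%), non-coding exons of 294 (29.1%), 3′ untranslated regions of 199 (19.7%) and 5′ untranslated regions of 33 (3.26%). A non-coding exon is here one of a transcript without coding sequence, which protein-coding genes can also have, and it may overlap coding bases of another transcript. Median fold enrichment was close across these classes, at 3.84, 3.65, 4.13 and 3.94. Position was taken in the host's transcript with most bases under the peak, which need not be its longest. By it, 508 peaks (50.2%) lay on a last exon, 385 on an internal exon, 95 on the exon of a single-exon transcript and 23 on a first exon. Of the 508, 175 were of the non-coding class. The share of all exonic bases that lies in last exons was not taken. Of 83.7 Mb of exons away from starts, 3′ untranslated regions made up 30.9 Mb. On last exons lay 51.1% of pool G's exonic peaks and 51.8% of pool H's. Peaks on last exons had a median fold enrichment of 4.15 against 3.67 on internal exons, and 48 of the 70 strong exonic peaks were on last exons. The host gene was protein-coding for 864 peaks and of another type for 147, among them 57 in lincRNA genes. Altogether 908 genes were hosts, of which 826 had 1 exonic peak. Among protein-coding genes, 786 of 21728 (3.62%) had an exon under an exonic peak.

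Density was counted from the centres of all peaks of the replicated list that fell in sequence more than 1000 bp from starts. A wide peak that reaches a start counts here if its centre lies farther away. Exons thus held 903 centres, against 683 exonic peaks away from starts with their centre in an exon. Per megabase, 5′ untranslated regions held 34.2 (23 centres in 0.672 Mb), coding sequence 17.97, non-coding exons 9.37, introns 4.55, 3′ untranslated regions 5.70 and intergenic sequence 2.20. Coding sequence lies nearer to starts than most of the genome, so the density was also taken by distance. Up to 2000 bp from a start it was 43.6 per Mb in coding sequence, 16.6 in introns and 11.8 in 3′ untranslated regions. Beyond 10000 bp it was 7.52 in coding sequence, 2.23 in introns and 2.73 in 3′ untranslated regions. At every distance band the coding density was above that of introns, 3′ untranslated regions and intergenic sequence. The GC share of coding sequence away from starts was 50.8%, against 42.1% for introns. Whether this accounts for the higher density was not tested.

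CpG content was higher in exonic than in intronic peaks in both pools. A peak was called CpG-rich where at least 50% of its bases were G or C and the observed over expected ratio of CpGs was at least 0.6. This held for 289 exonic peaks, 28.6% (25.8 to 31.5%), for 4.80% of intronic peaks (4.13 to 5.55%), 14.9% of intergenic peaks and 51.4% of start peaks. Pool G's list had 25.9% of exonic and 3.94% of intronic peaks CpG-rich, and pool H's 33.8% and 7.47%. The median ratio was 0.468 in exonic and 0.298 in intronic peaks. Within exonic peaks, the exonic bases had a ratio of 0.639 and 50.6 CpGs per kb, and the remaining bases of the same peaks 0.384 and 24.1. All exonic bases away from starts had a ratio of 0.287, coding bases 0.398 and intronic bases 0.183. Exonic bases under the peaks were thus CpG-denser than the rest of their peaks and than exons away from starts in general.

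The CpG-rich share was higher in stronger exonic peaks. It was 14.5% below a fold enrichment of 3, 24.2% from 3 to 4, 33.1% from 4 to 6, 40.1% from 6 to 10 and 57.1% at 10 or more. Intronic peaks of the same bins had 1.52, 3.22, 7.28, 16.1 and 31.0%, so that the exonic share was above the intronic one at every strength. Start peaks had 18.1, 29.2, 38.2, 42.1 and 61.4%, above the exonic share in each bin, and the share was higher in stronger peaks in all 4 locations. In pool G's list the exonic share was above the intronic one in every bin, from 7.41% against 0.898% to 49.6% against 23.9%. So it was in pool H's list, from 10.4% against 2.61% in the weakest bin to 56.5% against 29.3% in the strongest. Start peaks were above exonic ones in every bin of pool G's list. In pool H's list they were below in the bin from 3 to 4, at 26.2% against 29.3%. CpG-rich exonic peaks had a median fold enrichment of 4.76, and the other exonic peaks 3.55. Across the 1011 peaks Spearman's rho of fold enrichment with the CpG ratio was 0.35, and with width 0.62. These are descriptions over peaks that share their libraries, and width and fold enrichment come from the same signal.

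**Figure D2:**
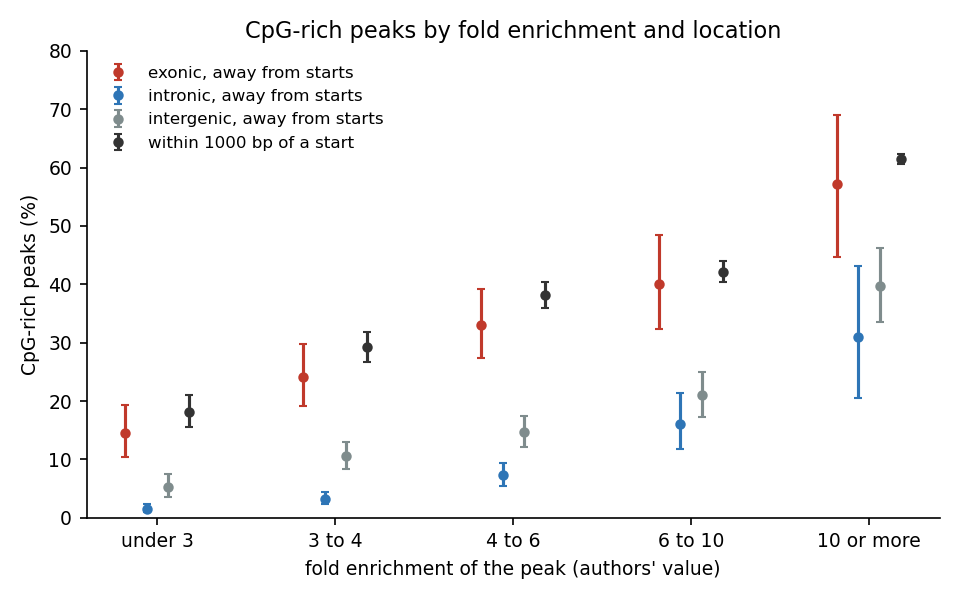
Share of CpG-rich peaks in percent by bin of fold enrichment and location in the replicated list; bars are 95% exact intervals. The share of exonic peaks away from starts goes from 14.5% to 57.1% across the bins. It lies above that of intronic and intergenic peaks and below that of start peaks in every bin, with the start share within the exonic interval.

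Of the coding exons grouped by position and CpG content, CpG-rich last exons carried the mark most often. Of 144230 coding exons that lay wholly more than 1000 bp from any start, 775 (0.537%) were overlapped by an exonic peak. The share was 7.51% (6.50 to 8.62%) for CpG-rich last exons (185 of 2465), 1.51% for CpG-rich exons that were not last, 0.725% for other last exons and 0.248% for the remaining exons. Pool G's own list gave 7.87, 1.59, 0.756 and 0.253%, and pool H's 5.96, 1.13, 0.482 and 0.138%, in the same order. Longer exons have more bases to be overlapped, so the shares were also taken by coding length. With over 500 coding bases, 73 of 265 CpG-rich last exons were overlapped (27.5%, 22.3 to 33.3%), and 23 of 165 CpG-rich exons that were not last (13.9%, 9.05 to 20.2%). Among equally long exons that were not CpG-rich, it was 1.84% of the last and 1.47% of the others. With over 200 and up to 500 coding bases the share was 13.3% in CpG-rich last exons, against 3.89% in CpG-rich exons that were not last. Exons were not matched for distance from the start or for transcription of their gene.

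**Figure D3:**
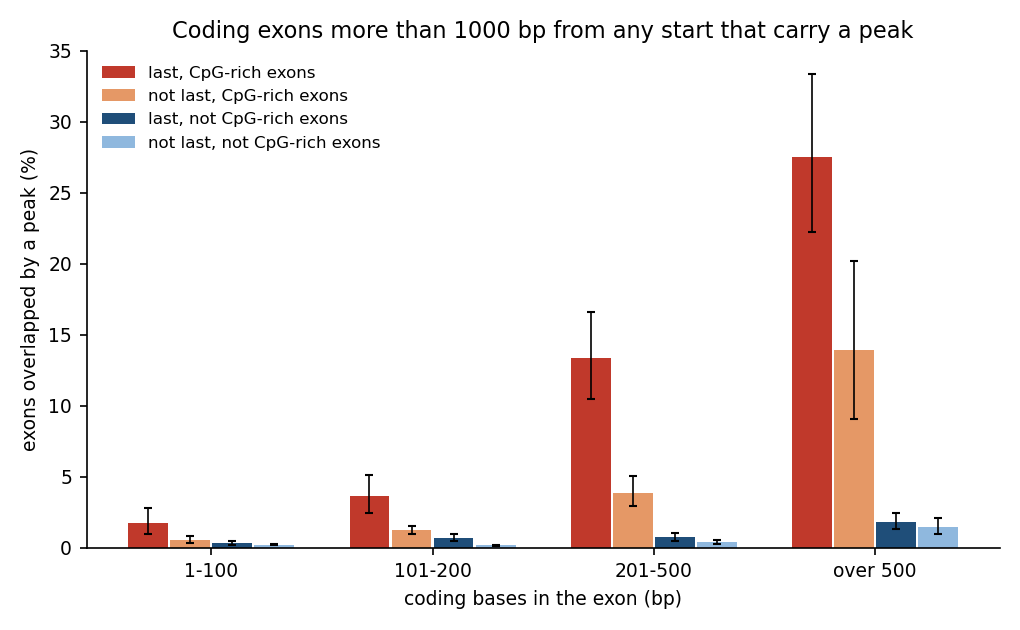
Share of coding exons lying wholly more than 1000 bp from any start that an exonic peak overlaps, by the number of coding bases, position in the transcript and CpG content; bars start at 0 and error bars are 95% exact intervals. CpG-rich last exons with over 500 coding bases reach 27.5%, and exons that are not CpG-rich are at most 1.84%.

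Seen from the peaks, 102 of the 159 on the coding part of last exons were CpG-rich (64.2%), against 24.7% of 304 on internal coding exons. These 102 had a median fold enrichment of 4.78, lay a median of 4111.5 bp from the nearest start and were 99.5% exonic at the median. Of the 102, 4 were joined to a peak at a start and 7 lay within 1000 bp of a RefSeq start, and in 44 no start of the host gene was marked. Over all 1011 exonic peaks these were 240 (23.7%), 92 (9.10%) and 256 (25.3%). The strongest of the 102 was on Rnf39, at 16.0, with a RefSeq start within 1000 bp. Examples chosen after the values were seen, among the 12 strongest, include Gdf15, a stress-induced cytokine, with a fold enrichment of 15.3 (17.7 in pool G and 12.5 in pool H) on its last exon. Trim14, an adaptor of innate immune signalling, had 15.6 (19.1 and 13.1) on its last exon, 11559 bp from the nearest start. Plin1, which coats the lipid droplets of fat cells, had 13.1 (16.7 and 9.45) on its last exon, 1258 bp from the nearest start, with no mark at its own start. Lor, which encodes loricrin of the epidermal barrier, had 10.5 (12.1 and 9.06), again with no mark at its own start, and lay 1081 bp from the nearest start, just past the limit.

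The 10 strongest exonic peaks present in all lists had fold enrichments of 17.3 to 22.0. Part of them lay at starts of another annotation, RefSeq, which holds predicted models beside curated starts. The highest, at chr4:143160694-143162236, overlapped 127 coding bases of exon 6 of Prdm2, a histone methyltransferase, with a fold enrichment of 22.0 (25.7 in pool G and 18.6 in pool H). Only 8.23% of its width was exonic, and it covered a Prdm2 start of the RefSeq annotation of the same build. The peak on Pura, a nucleic-acid-binding protein, had 20.1 (23.3 and 16.6) and covered a RefSeq start of Pura. The peak on the single exon of Sf3b5, a subunit of the splicing factor SF3B, had 18.7 (23.2 and 15.6). It lay 2522 bp from the GENCODE start and covered a curated RefSeq start. The peak on Ethe1, a mitochondrial sulfur dioxygenase, had 17.6 (22.2 and 12.7) and also covered a curated RefSeq start. The peak on A230052G05Rik, a transcript still to be experimentally checked, had 20.6 (23.5 and 17.5) and covered a RefSeq start of Kcnn1, a potassium channel. Zfp503, a zinc finger repressor, had 18.9 (20.0 and 17.1), and a RefSeq start lay 212 bp away. At Prdm2, Pura, A230052G05Rik and Zfp503 these were predicted models, and no curated RefSeq start lay within 1000 bp. The peaks on A230052G05Rik and Zfp503 were also joined to a start peak.

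The other 4 of these peaks had no start of either annotation within 1000 bp. Clec11a had 20.0 (21.0 in pool G and 20.0 in pool H) on its last exon, 1081 bp from the nearest start, with no peak at the host's own start. Nup160, a nuclear pore subunit, had 19.7 (23.1 and 16.8) 1371 bp from its start, which was not marked, and the nearest RefSeq start lay 1072 bp away, also just past the limit. Vsig8, an immunoglobulin-domain membrane protein, had 18.7 (24.0 and 12.7) on its last exon, 2325 bp from the start, which was not marked. Ccdc92b had 17.3 (21.1 and 13.3) on its last exon, 10262 bp from the nearest start.

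**Figure D4:**
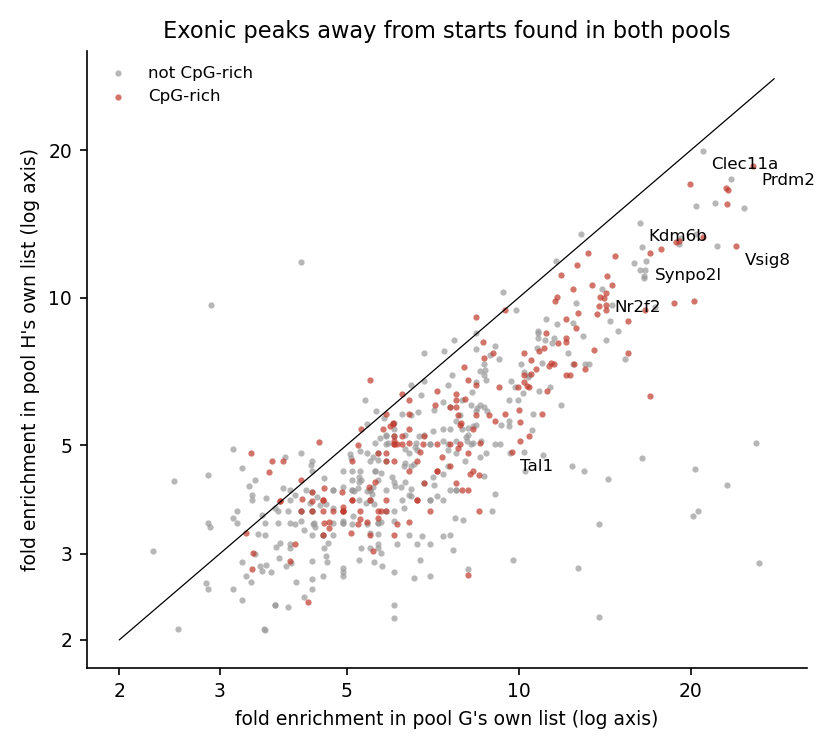
Fold enrichment of the 560 exonic peaks overlapped in both pools' own lists, in pool G (x, log axis) against pool H (y, log axis); each point is 1 peak at its strongest overlapping peak in that pool, the line marks equality, and colour marks CpG-rich peaks. Most points lie below the line, and Prdm2 (25.7 and 18.6) and Clec11a (21.0 and 20.0) are among the strongest in both pools.

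Over all 1011 exonic peaks, a RefSeq start lay within 1000 bp of 92 (9.10%), and a curated one of 18. Intronic peaks had such a start in 8.06% and intergenic peaks in 12.6%. The exonic peaks that covered a RefSeq start, 42 in number, had a median fold enrichment of 7.61 and a width of 1144 bp, and the 8 that covered a curated start 12.5 and 1528.5 bp. Kdm6b, a demethylase of lysine 27 on histone H3, carried the widest of all exonic peaks, at 4124 bp, with a fold enrichment of 16.4 (16.3 in pool G and 14.2 in pool H). It covered a RefSeq start of Kdm6b. The peak on Kcnh2, the channel of the rapid delayed rectifier current in heart, had 5.77 (8.33 and 4.43) and covered a RefSeq start of Kcnh2. Both of these starts were predicted models, not curated ones.

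Exonic peaks that were joined to a start peak, by gaps of at most 1000 bp, numbered 240 (23.7%), against 27.2% of intronic and 4.78% of intergenic peaks. They had a median fold enrichment of 3.24 and a CpG-rich share of 11.2%. The 771 peaks that stood apart had 4.13 and 34.0%. After those with a RefSeq start nearby were also set aside, 705 peaks remained, with a median fold enrichment of 4.11 and a CpG-rich share of 34.5%, and 49 of them had a fold enrichment of 10 or more. Zeb2, a zinc finger repressor, had 4 exonic peaks, all joined to a start peak, with fold enrichments of 2.11 to 8.66. The wide peaks on Dll4, a Notch ligand of endothelium (3259 bp, fold enrichment 4.68), and Ehd2, a caveolar ATPase (3183 bp, 9.90), were joined as well. A start of the host gene itself was marked for 755 peaks (74.7%). In the other 256 the median fold enrichment was 4.32 and the CpG-rich share 42.2%.

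Stronger exonic peaks were more often found in the separate pools. The replicated list was made from the reads of both pools, so the lists are not independent and recovery of strong peaks is built in. A peak of pool G's own list overlapped 84.3% of exonic peaks, against 92.5% of all peaks, and one of pool H's 59.0%, against 79.9%. Both pools had a peak at 560 exonic peaks (55.4%, 52.3 to 58.5%), against 78.5% of all peaks, 41.4% of intronic and 59.8% of intergenic peaks. Pool G alone had a peak at 292, pool H alone at 36 and neither at 123. The overlapping peak could itself reach a start: exonic peaks away from starts in the pools' own lists overlapped 787 of the 1011 in pool G and 562 in pool H. Below a fold enrichment of 3, both pools overlapped 9.54% of exonic peaks, and from 3 to 4 it was 37.7%. From 4 to 6 the share was 82.7%, and all 152 peaks from 6 to 10 and all 70 at 10 or more were overlapped in both. Intronic peaks had 11.7, 37.0, 80.3, 100 and 100% in these bins, each within the interval of the exonic value. The exonic peaks found in both pools had a median fold enrichment of 5.29, and those in pool G alone 3.17. The strongest exonic peaks that pool H lacked lay in Wnt10a (5.75), a secreted ligand, and Fzd5 (5.29), a receptor of such ligands.

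**Figure D5:**
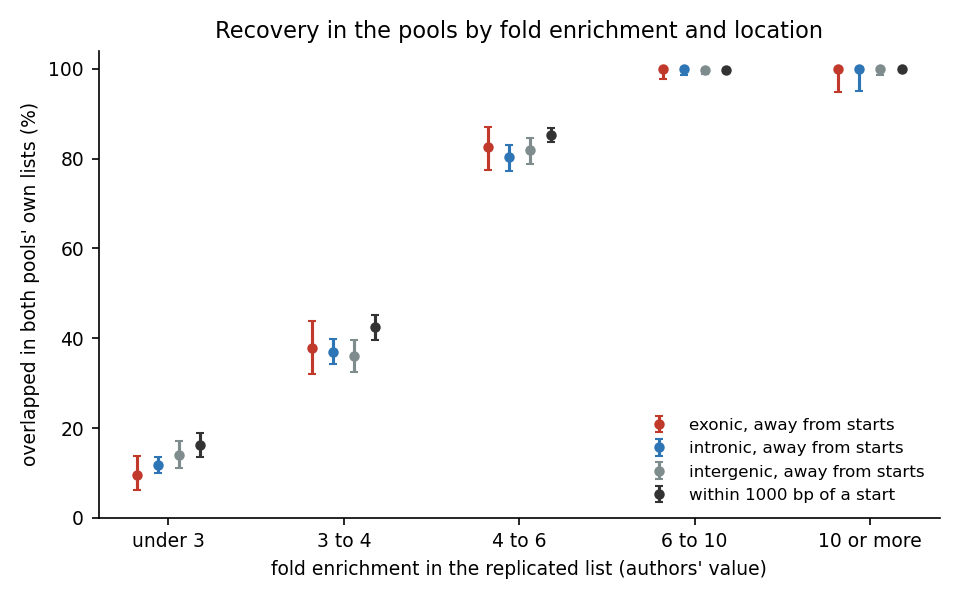
Share of replicated-list peaks that a peak of both pools' own lists overlaps, in percent, by bin of fold enrichment and location; bars are 95% exact intervals. In all 4 locations the share goes from at most 16.1% in the weakest bin to at least 99.8% from a fold enrichment of 6, and the exonic points are 9.54, 37.7, 82.7, 100 and 100%, with the first of them the lowest of the 4 locations.

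Genes of the contractile apparatus held several exonic peaks, most of them weak. Of 33 annotated genes of that list, 9 (27.3%) had an exon under one, against 3.62% of all protein-coding genes. They included Mybpc3, Myh6, Smyd1, Synpo2l, Tnnc1 and Ttn. Their 17 peaks had a median fold enrichment of 2.99, 8 were overlapped in both pools, 11 were joined to a start peak and 3 were CpG-rich. The list's genes had a median of 3673 exonic bases away from starts, against 2342 for all protein-coding genes, and 4.46% of the 13828 genes with a marked start had an exon under a peak. The part of exon length and of the start mark in the 27.3% was not tested. Ttn, the giant spring of the sarcomere, had 5 exonic peaks, more than any other gene, and its transcript has 347 exons. The fold enrichments of these peaks ran from 2.69 to 4.91. The 1 found in both pools (7.19 in pool G and 3.93 in pool H) was a 2707 bp peak that overlapped exon 223. Only 9.97% of its width was exonic, and its summit lay outside the exon. Tnnc1 had 5.92 (6.81 and 5.23), 1084 bp from its start and joined to the start peak. Synpo2l had 14.4 (16.7 and 11.9) on its last exon, and 99.3% of that peak's width was exonic. It was joined to a start peak and lay 896 bp from a predicted, not curated, RefSeq start of Synpo2l.

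Of the other lists for heart cells, those with an exonic peak were 6 of 30 genes (20.0%) for ion and calcium handling, 7 of 30 (23.3%) for cardiac transcription factors, 6 of 30 (20.0%) for endothelium, 3 of 16 (18.8%) for mural cells and 3 of 21 (14.3%) for fibroblasts, beside 3.62% of all protein-coding genes. These lists had medians of 3018.5 to 5106 exonic bases away from starts, against 2342 for all protein-coding genes. Among genes with a marked start the share was 4.46%. The part of exon length and of the start mark was not tested. In the order given, 3 of 7, 6 of 10, 5 of 7, 0 of 5 and 3 of 3 peaks were joined to a start peak. Gja5, the connexin of conduction fibres, had 7.02 (9.09 in pool G and 5.01 in pool H), and the peak was wholly in exon 4, its last. Hrc, a calcium-binding protein of the sarcoplasmic reticulum, had 6.34 (8.06 and 4.64) and its peak was joined to the start peak. Nr2f2, an atrial and venous transcription factor, had 12.1 (14.2 and 10.2) and Tbx2, of the atrioventricular canal, 6.002 (7.36 and 4.72), both overlapping last exons and CpG-rich. Only 11.6% of the Nr2f2 peak was exonic, and its summit lay outside the exon. Tal1 had 6.72 (9.73 and 4.83) on exon 3, and Klf4, a transcription factor of endothelium and stem cells, 4.71 (5.49 and 4.05) on its last exon, joined to a start peak. Notch3, the receptor of mural cells, had 2 exonic peaks of 5.58 and 5.38, both present in both pools. The fibroblast genes with one, Col3a1, Lum and Tcf21, had only weak peaks, of 2.17 to 2.85, and none was overlapped in both pools. In bulk tissue a weak mark in all cells and a strong mark in few cells cannot be told apart.

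In lists of other functions, fatty acid and energy metabolism had 2 of 32 genes with an exonic peak (6.25%), collagens and matrix 2 of 40, Hox genes 2 of 39 (5.13%) and erythroid genes 0 of 9, beside the same 3.62%. Chromatin regulators had 5 of 46 (10.9%), namely Dnmt3a, Hdac5, Kdm6b, Setd1b and Tet3. Of the housekeeping genes, 3 of 18 had one (16.7%). Immune genes had 2 of 18 (11.1%), adipocyte genes 1 of 8 (12.5%) and developmental transcription factors 5 of 51 (9.80%). Imprinted genes had 2 of 28 (7.14%), neuronal genes 1 of 18 (5.56%) and circadian genes 1 of 19 (5.26%). Shares above 3.62% were thus not confined to the lists for heart cells. Shares of lists were not tested against each other. Protocadherins had 0 of 57 in the replicated list. Pool G's own list had 1 peak of fold enrichment 4.22 on an exon that 22 of these genes share, the pseudoreplicated list 1 of 3.24 on an exon shared by as many, and pool H's list 1 of 3.14 on an exon of 1 gene.

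Short sequence motifs in the 300 bp around the summit were counted on both strands, without regard to overlap between motifs. The SP-type box GGGCGGG was in 11.97% of exonic, 5.57% of intronic, 13.7% of intergenic and 25.6% of start peaks, and in 20.8% of all peaks. In CpG-rich exonic peaks it was in 23.9%, and in CpG-rich start peaks in 33.4%. The ETS-type sequence CCGGAAG was in 6.23% of exonic, 3.34% of intronic and 6.96% of all peaks. The NRF1 motif was in 1.68% of exonic, 0.221% of intronic and 1.92% of all peaks. The AP-1-type sequence TGANTCA went the other way, with 5.14% of exonic against 8.44% of intronic peaks and 4.87% of all peaks, as did AGATAAG of GATA factors, with 2.57% against 4.61% and 2.33% of all peaks. In CpG-rich exonic peaks these were in 1.04 and 0.346%. Among peaks that were not CpG-rich, TGANTCA was in 6.79% of exonic and 8.52% of intronic peaks, and AGATAAG in 3.46 and 4.67%. For both of these sequences the intervals of the exonic and intronic shares overlapped. In the same peaks GGGCGGG was in 7.20 and 4.41%, CCGGAAG in 5.12 and 3.22% and the NRF1 motif in 1.11 and 0.174%. The part of base composition in these differences was not tested. The sequence TATAAA was in 9.69% of exonic, 14.8% of intronic and 6.94% of all peaks. A match describes the letters of a window and is not a binding site.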

How the data were processed

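H3K4me3 peaks of mouse heart came as 4 lists in narrowPeak format on mm10, deposited by the authors: 1 for pool G, 1 for pool H, 1 for both pools from pseudoreplicates and 1 for both pools as replicated, per the labels. The list called as replicated was the main one. Of the columns beside the coordinates, the signal, the q value and the summit position were used. The authors' deposited signal per peak was taken as a ratio, a fold enrichment over control; the files do not name this column, so this is an assumption. The −log10 q value of a peak is also the authors' deposited value. The aligner, peak caller, their versions and the threshold are not given in the sources used here. Both technical replicates of a pool share 1 list, so no value per library was available, and read depth is unknown.

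Starts and exons were those of GENCODE M21 (all gene types, chromosome Y left out where genes were counted). A peak's exon class was the class with most bases under it. Its host was, separately, the gene with most exonic bases under the peak over all classes, so class and host exon can differ. RefSeq starts of the same build, predicted models included, and genome sequence were used beside them. Peaks at most 1000 bp apart were joined. A pool's value at a peak is that of its strongest peak overlapping by at least 1 bp. Overlaps, distances and CpG counts were checked on simulated intervals against bedtools 2.31.1. Tables were made with pandas 2.3.3 and numpy 2.4.6 in Python 3.11.15, intervals with scipy 1.17.1 and plots with matplotlib 3.10.9.

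The regions, the 19 gene lists and the rules were chosen with earlier results of these data known. Genes named were those of the 10 strongest peaks present in all lists, the 5 widest, the 5 farthest from a start, the 3 strongest of each exon class, the 3 hosts with most peaks and up to 3 peaks of each of 6 heart lists; not all are given, and others are said to be chosen later. RefSeq starts, densities by distance, the coding exon counts and leaving out joined peaks were added after the data were seen. Murc, Zac1 and Pcdha10 of the lists had no match in the annotation by that name. No test between groups was made, since the study has 1 condition and 2 pools, and peaks are not replicates.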

Additional observations from a re-analysis of the deposited data

How the results depend on the processing

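No paired analysis was possible because each list was made per pool, without values per library, and no result comes from a test. With each pool's own list in place of the replicated one, the number of exonic peaks was 678 to 1033, their share 3.15 to 4.16%, median fold enrichment 4.29 to 4.54, median width 621.5 to 665 bp, share in last exons 51.1 to 51.8% and share near a RefSeq start 8.85 to 9.97%. Fold enrichment exceeded that of intronic peaks by 0.452 to 0.601 and differed from that of intergenic peaks by -0.339 to -0.189. Overlapped CpG-rich coding exons were 5.96 to 7.87% of last and 1.13 to 1.59% of other exons, and the remaining coding exons 0.482 to 0.756% and 0.138 to 0.253%. The pseudoreplicated list gave a median fold enrichment of 3.63, 0.459 above intronic peaks, a width of 542 bp, 49.5% in last exons and 50.4% recovered in both pools.

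Keeping peaks with −log10 q of at least 5 left 577 exonic peaks, 2.88% of that list, with a median fold enrichment of 5.20 and a width of 784 bp. It was then 0.770 above intronic and differed by -0.0906 from intergenic peaks. Of these, 36.2% were CpG-rich (27.5 points above intronic peaks), 15.1% joined, 10.9% near a RefSeq start and 83.9% recovered.

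The count depended on the rule. The share was 4.92% beyond 500 bp and 2.92% beyond 2000 bp of a start, and beyond 5000 bp it was 362 peaks and 1.45%. Distance from the peak centre gave 1708 peaks and 6.83%, at least 50% of the peak in exons 629 and 2.52%, and the centre in an exon 2.73%. Counting any coding base made 63.4% coding. A CpG ratio of 0.5 or 0.7 gave CpG-rich shares of 36.7 or 19.3% (28.7 or 16.6 points above intronic peaks), and overlapped CpG-rich coding exons of 5.38 or 10.4% of last and 1.18 or 2.13% of other exons. A gap of 0 bp joined 0% and one of 3000 bp 36.7%. Overlap by 50% of both peaks gave 45.8% recovered, and exonic peaks of at least the median fold enrichment 88.6%.

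Added after the data were seen: without joined peaks the median fold enrichment was 4.13 and 58.8% were recovered, and without those near a RefSeq start as well 4.11, with 34.5% CpG-rich. The cause of these shifts was not tested. Peak lists hold no reads, so depth limits cannot be given.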
